A study of Homo sapiens with 16 samples.

Results

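The interferon-stimulated and double-stranded RNA (dsRNA) sensing genes are a list of 41 genes by name: transcription factors of the interferon response, cytosolic sensors of dsRNA with their adaptor and regulators, antiviral effectors, ISG15-type conjugation and ADP-ribosylation enzymes, and antigen processing and presentation genes. Of the 41, 36 were listed in the table of parental and MDA-LM2 cells, which holds 10799 transcripts, and 32 in the table of sgControl and sgHNRNPC cells, which holds 8980. All 32 were in both tables. ISG15, IFI44L, IFIH1, OAS1 and B2M were in neither, and ISG20, DHX58, MX1 and PARP9 were listed for MDA-LM2 alone. Each table keeps a transcript only where every RNA library of that table has at least 5 reads, so a gene silent in either line of a pair could not appear in it.

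The parental line, MDA-MB-231, comes from a human breast cancer without hormone receptors or HER2 amplification, and metastasises poorly per the labels. MDA-LM2 was derived from it by selection for growth in the lungs. sgControl and sgHNRNPC are MDA-MB-231 cells that express dCas9-KRAB, a catalytically dead Cas9 joined to a repressor domain (CRISPR interference), and were sorted by fluorescence as a population, with either a control guide or a guide against HNRNPC, a nuclear protein that binds U-rich RNA. Per the study's methods, the repressor and the guides were delivered by lentivirus, and cells with a guide were selected with puromycin or blasticidin. All 4 lines were grown in the same medium, and the labels name no interferon or dsRNA treatment in any of them. Each line gave 2 RNA libraries and 2 libraries of ribosome-protected footprints (RPF), the mRNA fragments that translating ribosomes shield from nuclease, 16 samples in all. Values are normalised counts per transcript, with 1 transcript per gene. Translational efficiency (TE) is the ratio of RPF to RNA, so a TE change is what remains of the footprint change after the RNA change is taken off on the log2 scale. The question put to these genes was whether the MDA-LM2 state or HNRNPC depletion goes with an interferon response.

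Cells sense dsRNA through helicases such as RIG-I (gene RIGI) and MDA5 (IFIH1), which signal through the mitochondrial adaptor MAVS to the transcription factors IRF3 and IRF7 and so to interferon production. Interferon then acts on its receptor, and a complex that holds STAT2 and IRF9 binds the interferon-stimulated response element in the promoters of the genes it induces. Their products include IFIT proteins, which bind foreign RNA, oligoadenylate synthetases, which activate RNase L, and the kinase PKR (EIF2AK2), which halts translation on binding dsRNA. Many of these genes are transcribed at a low level without added interferon, and tumour lines differ in that level. HNRNPC is known for binding U-rich stretches of nuclear RNA, Alu-derived ones included.

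The promoters are shown because the response element is the feature these genes are known to share. A promoter was taken for 35 of the 41 genes from the RefSeq table (build GRCh38.p14), running from 250 bases before the annotated start site to 50 bases after it. The 6 below belong to 4 genes whose RNA was lower in MDA-LM2 cells, to IFIT5, the neighbour of IFIT1 that was not called, and to EIF2AK2, whose RNA was higher in sgHNRNPC cells. They are printed 5′ to 3′ on the strand of the gene, with each match to the element core GAAANNGAA, on either strand, in capitals. The windows are chr10:89392373-89392672 (IFIT1, plus strand), chr10:89327747-89328046 (IFIT3, plus), chr10:89414318-89414617 (IFIT5, plus), chr19:17405581-17405880 (BST2, minus), chr14:94110486-94110785 (IFI27, plus) and chr2:37156931-37157230 (EIF2AK2, minus).
IFIT1: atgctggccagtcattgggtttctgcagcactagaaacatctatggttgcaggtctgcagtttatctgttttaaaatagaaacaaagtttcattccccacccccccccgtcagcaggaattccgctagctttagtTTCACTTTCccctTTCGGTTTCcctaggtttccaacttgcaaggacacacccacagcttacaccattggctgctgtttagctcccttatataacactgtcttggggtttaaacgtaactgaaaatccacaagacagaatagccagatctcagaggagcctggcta
IFIT3: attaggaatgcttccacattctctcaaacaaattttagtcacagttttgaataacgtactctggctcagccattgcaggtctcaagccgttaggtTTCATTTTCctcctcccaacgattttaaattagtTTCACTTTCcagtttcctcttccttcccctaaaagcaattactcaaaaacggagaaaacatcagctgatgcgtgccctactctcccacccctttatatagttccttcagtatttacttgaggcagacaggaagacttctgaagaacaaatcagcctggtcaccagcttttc
IFIT5: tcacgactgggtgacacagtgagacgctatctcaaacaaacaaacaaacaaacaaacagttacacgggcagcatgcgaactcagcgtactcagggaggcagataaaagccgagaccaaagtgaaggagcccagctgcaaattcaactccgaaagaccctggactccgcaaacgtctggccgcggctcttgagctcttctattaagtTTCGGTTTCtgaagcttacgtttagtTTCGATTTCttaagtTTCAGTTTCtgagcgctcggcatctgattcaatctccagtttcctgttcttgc
BST2: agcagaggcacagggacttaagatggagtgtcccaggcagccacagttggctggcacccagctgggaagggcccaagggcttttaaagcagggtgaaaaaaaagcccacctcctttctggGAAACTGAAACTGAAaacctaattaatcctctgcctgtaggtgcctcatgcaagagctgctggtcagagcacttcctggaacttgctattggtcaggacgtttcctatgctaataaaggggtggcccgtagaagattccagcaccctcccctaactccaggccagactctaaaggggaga
IFI27: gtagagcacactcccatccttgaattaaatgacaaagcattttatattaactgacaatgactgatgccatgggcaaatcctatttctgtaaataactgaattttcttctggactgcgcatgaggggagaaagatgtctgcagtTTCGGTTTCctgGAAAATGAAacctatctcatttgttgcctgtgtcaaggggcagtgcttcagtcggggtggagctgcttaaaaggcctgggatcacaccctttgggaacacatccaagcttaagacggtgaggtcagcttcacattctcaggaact
EIF2AK2: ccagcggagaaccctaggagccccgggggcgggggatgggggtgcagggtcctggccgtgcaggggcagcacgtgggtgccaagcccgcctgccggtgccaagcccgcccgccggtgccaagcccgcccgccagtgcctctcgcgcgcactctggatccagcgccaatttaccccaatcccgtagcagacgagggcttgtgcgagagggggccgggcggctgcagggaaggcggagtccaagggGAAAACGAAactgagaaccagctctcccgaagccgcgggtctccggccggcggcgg

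The core was present in 19 of the 35 promoters (54.3%), against 2847 of 35116 promoters in the whole table (8.11%). It was in 5 of the 5 genes with lower RNA in MDA-LM2 cells that have a promoter entry (BST2, DDX60, IFI27, IFIT1 and IFIT3), in 2 of the 3 with higher RNA (DTX3L and PARP14, but not MAVS) and in 8 of the 22 that were listed and not called. IFIT2, OAS2, OASL and DHX58, also lower in MDA-LM2 RNA, had no promoter entry and were not searched. The windows follow RefSeq start sites. For ADAR, PARP9, PSMB8 and UBE2L6, which were not called, the window does not hold the start of the counted transcript. None of these windows held the core, so the 8 of 22 is no like comparison with the 5 of 5. IFIT5 holds 3 matches, more than IFIT1 or IFIT3, and its RNA was not called. The second motif searched, TTCNNNGAA, the core of the gamma-activated site, which reads the same on both strands, was in 8 of the 35 promoters (22.9%) and in 7.66% of the table. A match of letters is a description of the window and does not show binding.

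**Figure D1:**
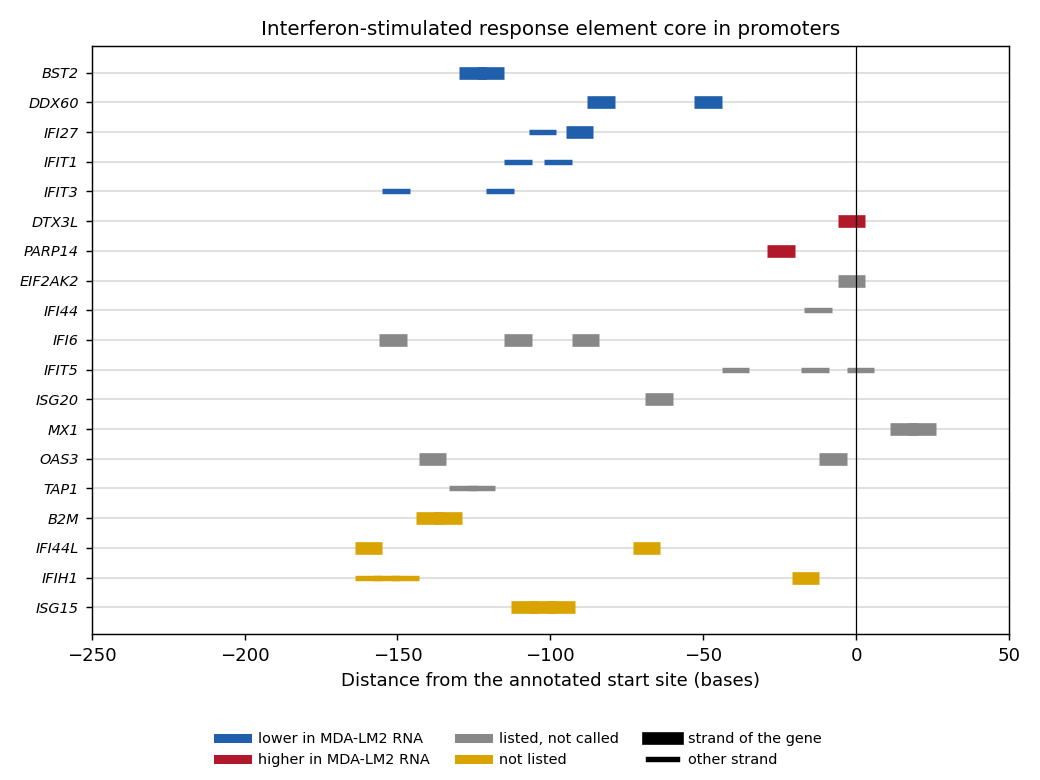
Positions of the interferon-stimulated response element core in the 19 promoters that hold it, as distance in bases from the annotated start site, with 1 line per gene; thick marks are on the strand of the gene and thin marks on the other, and colour gives the RNA call in MDA-LM2 cells. The 5 promoters of genes with lower RNA each hold 2 matches, all upstream of the start site, and genes that were not called, such as IFI6 and TAP1, hold matches over the same stretch.

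The cell lines carried the markers of their origin. The mesenchymal-type markers VIM, CD44, AXL, CAV1 and MSN were listed in both tables, with RNA values from 1637 upward. ESR1, PGR, FOXA1 and CDH1 were in neither table, nor were the leukocyte markers PTPRC, CD3E, LYZ and CD14 or the stromal genes DCN and LUM. GATA3 (8.46 to 18.6) and the stromal marker PDGFRB (16.0 to 44.3) were listed at low values for parental and MDA-LM2 cells alone. HNRNPC RNA was 2162 and 2146 in sgControl and 1147 and 1183 in sgHNRNPC libraries, which is 54.1% of control (log2 change -0.89 ± 0.05 SE, limma adjusted p = 2.29e-35). In parental cells HNRNPC RNA was 2768 and 2664, and in MDA-LM2 cells 2197 and 1930 (log2 change -0.40 ± 0.12, adjusted p = 0.0547).

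In MDA-LM2 cells a group of antiviral genes had less RNA than in parental cells, while the transcription factors and the antigen presentation genes of the list did not pass the test. RNA was lower for 9 of the 36 listed members and higher for 3. The 9 were IFI27, OAS2, BST2, IFIT2, OASL, IFIT1, IFIT3, DHX58 and DDX60, with log2 changes from -3.21 to -1.15, and the 3 were MAVS, PARP14 and DTX3L, with changes from 0.55 to 0.86. Calls were made by limma on log2(value + 1) at a Benjamini-Hochberg adjusted p under 0.05 over all transcripts of the table. Of all transcripts listed, 16.6% were called, 10.0% lower and 6.61% higher. The members' shares were 25% lower and 8.33% higher, so the higher share was near that of all transcripts. The median change over the 36 members was -0.05 and that over all transcripts -0.02. Without replicate 1 of MDA-LM2, 21 members were called, in a fit that called 46.7% of all transcripts, the added ones being OAS3, EIF2AK2, IRF1, UBE2L6, ADAR, HLA-C, RIGI, IFI35 and IRF3. These are bulk samples, in which fewer cells expressing a gene and less RNA per cell cannot be told apart.

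**Figure D2:**
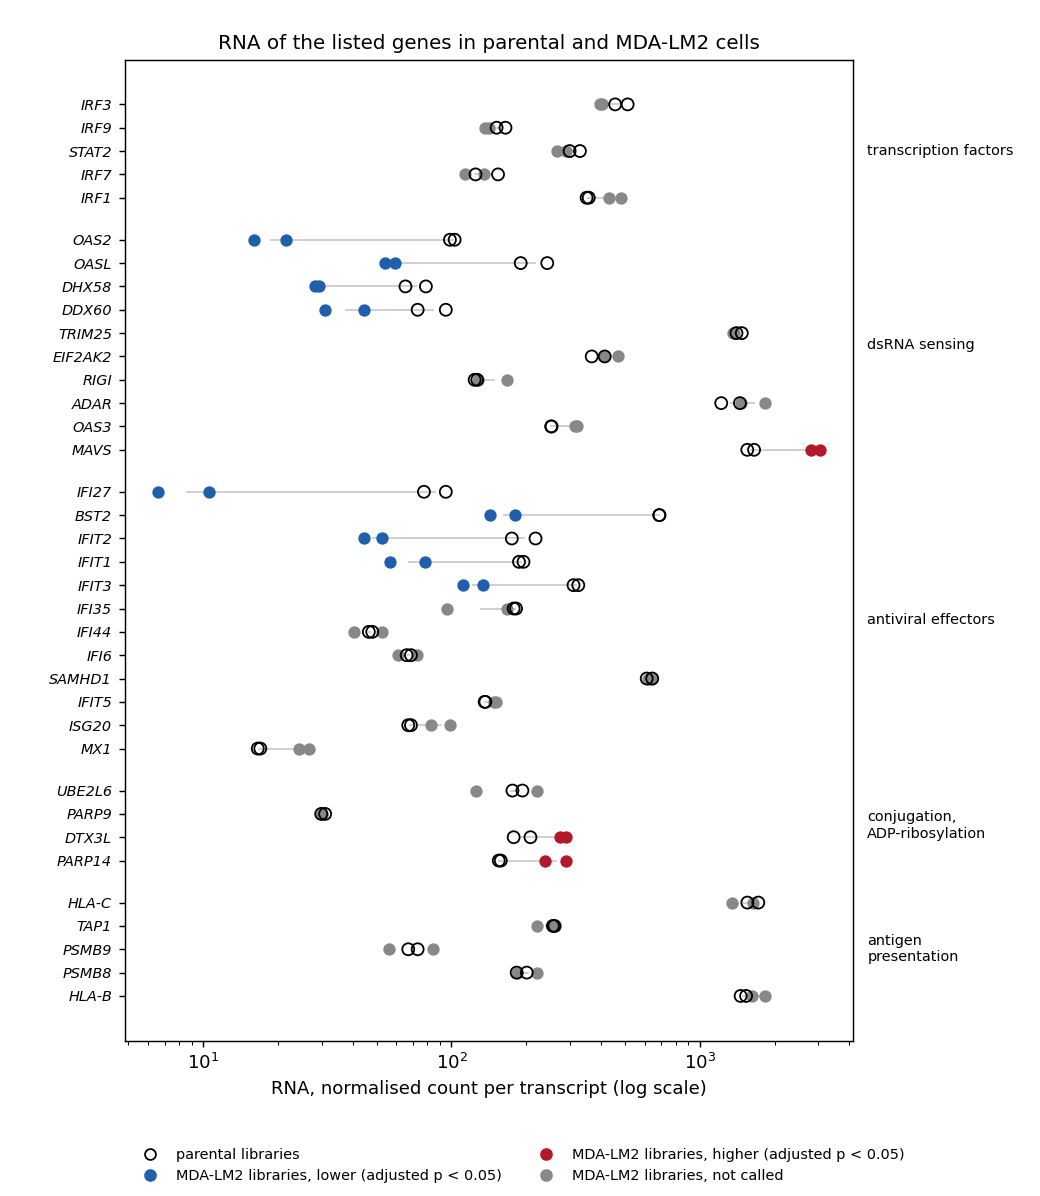
RNA of the 36 listed members in each of the 2 parental (open circles) and 2 MDA-LM2 (filled circles) libraries, as normalised count per transcript on a log scale, grouped by role; grey lines join the group means and colour gives the call. IFI27, BST2, OAS2, OASL and the IFIT1, IFIT2 and IFIT3 trio lie well to the left in MDA-LM2 cells, MAVS lies to the right, and most other members lie close to their parental values.

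Among the transcription factors, RNA gave 0 of 5 called by limma and 1 (IRF1) at an unadjusted p under 0.05. IRF3, which the sensors activate by phosphorylation, was at 512 and 456 in parental and 404 and 395 in MDA-LM2 libraries (log2 change -0.27 ± 0.12, adjusted p = 0.165). STAT2, a subunit of the complex that interferon assembles, was at 299 and 329 in parental and 267 and 290 in MDA-LM2 libraries (-0.17 ± 0.13, adjusted p = 0.395). In both genes the MDA-LM2 libraries lay below the parental ones without overlap, as they did in one direction or the other for 61.8% of all transcripts. IRF1, a factor induced by interferon gamma, was higher in footprints: 26.0 and 39.0 RPF in parental against 53.4 and 57.8 in MDA-LM2 libraries (log2 change 0.78 ± 0.22, adjusted p = 0.0154), with RNA at 350 and 357 against 431 and 481 (0.37 ± 0.12, adjusted p = 0.0773). Its RNA was called higher when libraries were rescaled to equal totals, with voom on recovered reads and without either MDA-LM2 replicate. That RPF call was lost without replicate 1 of parental (adjusted p = 0.205) or replicate 2 of MDA-LM2 (0.101). The IRF1 transcript shares 580 exonic bases with the antisense gene IRF1-AS1, and the sources used here do not say whether counting used the strand.

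Among the dsRNA sensors and regulators, 4 of 10 listed members were lower and 1 was higher. RIGI, the sensor of short or 5′-triphosphate dsRNA, whose exons lie almost wholly within a read-through gene model on the same strand, was at 124 and 127 in parental and 128 and 168 in MDA-LM2 libraries (log2 change 0.22 ± 0.17, adjusted p = 0.413). MAVS, the adaptor that RIG-I and MDA5 share, had RNA of 1552 and 1653 in parental and 3037 and 2798 in MDA-LM2 libraries (0.86 ± 0.12, adjusted p = 0.00219). This was the largest rise in the list, and it held when each library was left out in turn. In footprints MAVS was at 62.7 and 66.4 in parental and 76.7 and 93.9 in MDA-LM2 libraries, a change that did not pass (0.39 ± 0.17, adjusted p = 0.124). The MAVS transcript (chr20:3846834-3876118, plus strand, hg38) has 1620 coding bases and 10111 noncoding ones.

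The LGP2 and DDX60 helicases fell. DHX58, which encodes LGP2, a regulator of both sensors that lacks signalling domains, was at 65.3 and 78.9 in parental and 28.2 and 29.3 in MDA-LM2 RNA (log2 change -1.29 ± 0.21, adjusted p = 0.00543). DDX60, a helicase linked to RIG-I signalling, was at 73.1 and 94.9 against 31.0 and 44.3 (-1.15 ± 0.24, adjusted p = 0.016), and its call was lost without replicate 2 of parental (adjusted p = 0.0615). Neither pair of groups overlapped. EIF2AK2 was at 367 and 414 in parental and 411 and 470 in MDA-LM2 libraries, which overlapped (0.17 ± 0.13, adjusted p = 0.401). ADAR, the enzyme that edits A to I in dsRNA and so keeps self RNA from being sensed, was at 1219 and 1450 against 1465 and 1837 (0.30 ± 0.15, adjusted p = 0.195).

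The oligoadenylate synthetase genes did not move alike. OAS2 was at 98.6 and 103 in parental and 21.6 and 16.0 in MDA-LM2 RNA, 19.3% of the parental level (log2 change -2.38 ± 0.23, adjusted p = 0.000425). The MDA-LM2 values of OAS2 were low, so the size of its fall is uncertain. OAS3, which lies next to it on chromosome 12 (chr12:112938474-112973251 beside chr12:112978395-113011723, both plus strand), was at 253 and 252 against 319 and 315 (0.33 ± 0.12, adjusted p = 0.106). OASL, a relative without synthetase activity that acts on RIG-I, lies elsewhere on that chromosome (chr12:121019111-121039246) and was at 190 and 243 against 59.2 and 54.1 (-1.91 ± 0.18, adjusted p = 0.00035). The MDA-LM2 libraries lay below the parental ones for OAS2 and OASL and above them for OAS3. OAS3 was called higher when libraries were rescaled to equal totals and without either MDA-LM2 replicate.

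The antiviral effectors held 5 of the 9 lower members, of 12 listed, and no higher one. IFI27, a mitochondrial protein strongly induced by type I interferon, was at 77.5 and 94.9 in parental and 6.58 and 10.6 in MDA-LM2 RNA, 10.8% of the parental level on the scale tested (log2 change -3.21 ± 0.29, adjusted p = 0.000337). Its MDA-LM2 values were near the limit of 5 reads for being listed, so the size of the fall is uncertain. BST2 encodes tetherin, which holds budding virions at the cell surface. It was at 686 and 688 in parental and 180 and 143 in MDA-LM2 RNA (-2.09 ± 0.15, adjusted p = 9.11e-05), the smallest adjusted p of the list. Per kilobase of transcript BST2 was the third most abundant listed member in parental RNA, at 686, behind HLA-C at 1060 and HLA-B at 975, and stood at 162 in MDA-LM2 cells.

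IFIT2, IFIT3, IFIT1 and IFIT5 lie in this order on chromosome 10, all on the plus strand between chr10:89302046 and 89420997, and bind foreign or capless RNA. IFIT2 was at 175 and 218 in parental and 52.6 and 44.3 in MDA-LM2 RNA (log2 change -1.99 ± 0.19, adjusted p = 0.00035). IFIT3 was at 310 and 324 against 111 and 134 (-1.37 ± 0.15, adjusted p = 0.000751), and IFIT1 at 195 and 187 against 56.4 and 78.0 (-1.51 ± 0.19, adjusted p = 0.00158). IFIT5, the last of the row, was at 137 and 136 against 149 and 151 (0.14 ± 0.14, adjusted p = 0.55). So 3 of these 4 genes were lower and the fourth was not called. No exon of another annotated gene overlaps any of the 4 transcripts.

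MX1, a GTPase against influenza viruses that often serves as a marker of interferon exposure, was near the listing limit at 16.6 and 17.0 in parental and 24.4 and 26.6 in MDA-LM2 RNA (log2 change 0.57 ± 0.27, adjusted p = 0.18). Its values were higher in MDA-LM2 cells, opposite to the 5 effectors that fell. The other effectors not called were ISG20, IFI6, IFI35, IFI44 and SAMHD1. Among all 24 members that were not called, log2 changes ran from -0.50 to 0.57 and adjusted p from 0.0773 to 0.985.

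The conjugation and ADP-ribosylation genes held the other 2 higher members. PARP14, an ADP-ribosyltransferase, was at 155 and 158 in parental and 239 and 290 in MDA-LM2 RNA (log2 change 0.75 ± 0.15, adjusted p = 0.0123). DTX3L, a ubiquitin ligase that pairs with PARP9, was at 208 and 178 against 290 and 273 (0.55 ± 0.14, adjusted p = 0.0327). PARP9 itself, head to head with DTX3L on chromosome 3 and sharing 139 exonic bases with it on the opposite strand, was at 29.9 and 31.0 against 30.1 and 30.1. DTX3L was no longer called without replicate 1 (adjusted p = 0.102) or 2 (0.329) of parental, nor PARP14 without replicate 1 of parental (0.0631).

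In antigen processing and presentation, 0 of 5 listed members were called by limma in MDA-LM2 RNA, and none had an unadjusted p under 0.05. HLA-B, a class I heavy chain, was at 1535 and 1459 in parental and 1832 and 1620 in MDA-LM2 libraries (log2 change 0.20 ± 0.12, adjusted p = 0.27), and was called higher with equal totals (adjusted p = 0.0327) and without MDA-LM2 replicate 2 (0.0033). HLA-B and HLA-C are near-identical and their reads can be split between them, so their separate levels are uncertain. TAP1, PSMB8 and PSMB9, the peptide transporter and immunoproteasome subunits, had log2 changes between -0.11 and 0.08.

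Footprints in MDA-LM2 cells were tested where the mean value reached 10 in RPF and in RNA alike. Of the 33 members that did so, 7 were lower and 2 higher in RPF, against 7.03% lower and 5.00% higher over all 8393 transcripts tested. All 7 lower ones (IFI27, OAS2, OASL, BST2, IFIT3, IFIT2 and IFIT1) were also lower in RNA. IFI27, OAS2 and OASL had MDA-LM2 means under 10 and passed the minimum only through the parental libraries, so a fall was a condition of their being tested, and their values are a description. The other 4 had means above it in both lines. IFI27 RPF was 17.8 and 23.2 in parental and 0 and 2.06 in MDA-LM2 libraries, below the minimum in MDA-LM2 cells (log2 change -3.61 ± 0.60, adjusted p = 5.43e-05). BST2 was at 91.1 and 98.2 against 41.3 and 25.4 RPF (log2 change -1.52 ± 0.20, adjusted p = 1.14e-06). IFIT3 was at 96.0 and 107 against 53.7 and 40.6 (-1.10 ± 0.17, adjusted p = 2.26e-05).

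The remaining lower members had fewer footprints. OASL was at 21.0 and 22.2 RPF in parental and 5.64 and 5.28 in MDA-LM2 libraries (log2 change -1.80 ± 0.40, adjusted p = 0.00204). OAS2 was at 31.9 and 23.4 against 2.14 and 12, with the MDA-LM2 libraries wide apart (-2.15 ± 0.46, adjusted p = 0.00127). IFIT1 was at 54.6 and 54.8 against 24.1 and 32.1 (-0.95 ± 0.22, adjusted p = 0.00328). IFIT2 was at 34.1 and 49.9 against 18.9 and 19.0 (-1.08 ± 0.26, adjusted p = 0.00478), a call lost without replicate 2 of parental (adjusted p = 0.109). DDX60 did not pass in RPF (34 and 39.8 against 19.6 and 33.0, adjusted p = 0.219), and DHX58 was below the minimum with RPF between 0 and 10.8. PARP14 rose in RPF as in RNA, from 44.9 and 35.5 to 68.4 and 69.1 (0.77 ± 0.19, adjusted p = 0.00593), a call lost without replicate 2 of parental (adjusted p = 0.0617).

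No member was called in TE in MDA-LM2 cells by limma (0 of 33, with 2 at an unadjusted p under 0.05), by the logistic regression of the study's methods, or within each lysate. Of all transcripts, limma called 0.0357%, logistic regression 2.16% and the fit within each lysate none. The 2 were IFIT2, with a TE change of 0.91 ± 0.34 (adjusted p = 0.89), and MAVS, with -0.47 ± 0.18 (adjusted p = 0.89). Across the 33 members the RNA and RPF changes correlated with Pearson r = 0.93 and Spearman rho = 0.75, and 24 had the same sign. The 33 include IFI27, OAS2 and OASL, which passed the minimum only through the parental libraries and lie among the lowest changes. The correlations are therefore a description. Per the labels, RNA and footprints were taken from the lysates together, and the values are given across genes, which are not independent replicates.

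**Figure D3:**
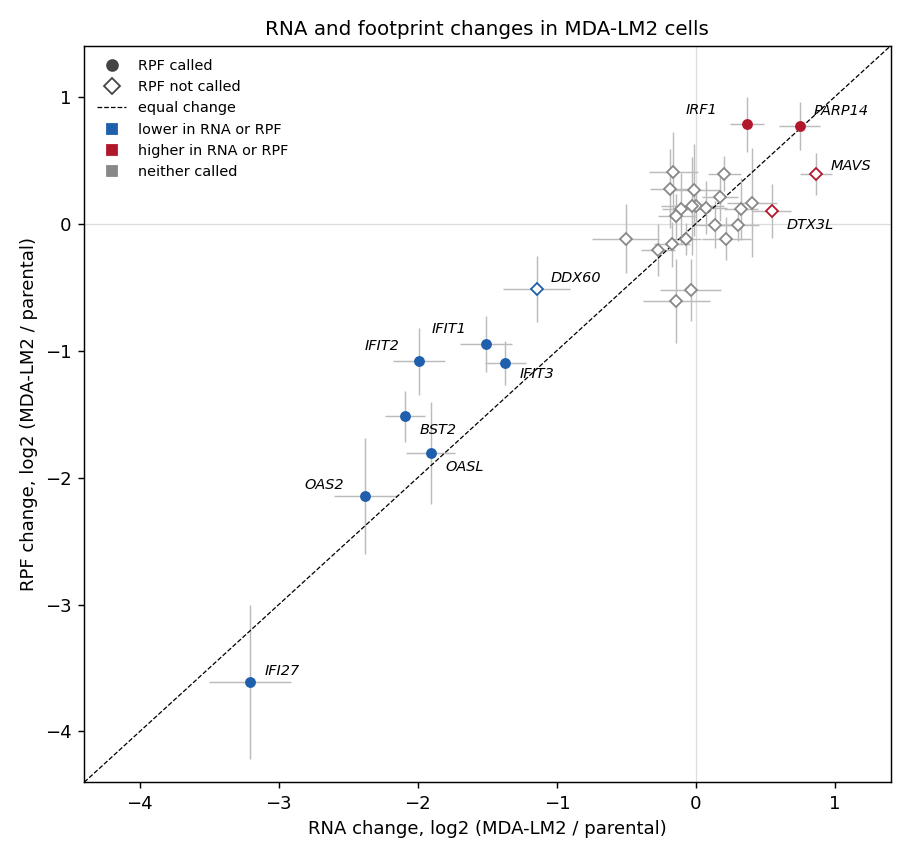
Log2 RNA change (x axis) against log2 RPF change (y axis) between MDA-LM2 and parental cells for the 33 members tested in both, with standard errors as bars; filled circles were called in RPF, open diamonds were not, and the dashed line marks equal change. Of the 8 tested members lower in RNA, 7 had a smaller change in RPF and lie above the line, IFIT2, DDX60, BST2 and IFIT1 furthest. These 8 were picked by their RNA fall, and the value added before log2 shrinks changes of low RPF values more. Their place above the line is therefore a description. IFI27 lies below the line at the lower left, and MAVS lies below it on the right. None was called in TE.

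The members also differed in how many footprints they carried per RNA before any comparison. With RPF taken per coding kilobase and RNA per kilobase of transcript, the ratio of mean values in parental cells ran from 0.0615 for HLA-C and 0.0865 for HLA-B to 1.03 for IFI44 and 1.15 for IFIT5. RIGI (0.906), IFIT1 (0.859) and EIF2AK2 (0.746) were also in the upper part, and ADAR (0.201) and IRF3 (0.134) in the lower. RPF and RNA were normalised separately, so the ratio orders genes within a line and is no absolute rate.

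After HNRNPC knockdown the changes were small. RNA was higher for 4 of the 32 listed members (HLA-B, EIF2AK2, HLA-C and BST2) and lower for 1 (IFIT2), with log2 changes of the called genes from -0.40 to 0.38. Over all transcripts 10.0% were called, 3.41% higher and 6.64% lower, against 12.5% and 3.12% of the members. The median change over the members was 0.07 and that over all transcripts -0.02. With a library left out the fit called 2 members (without either sgHNRNPC replicate) or 3 (without either sgControl replicate). EIF2AK2 and HLA-B were called each time, and without sgControl replicate 2 the third was IFIT3 (adjusted p = 0.0336).

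**Figure D4:**
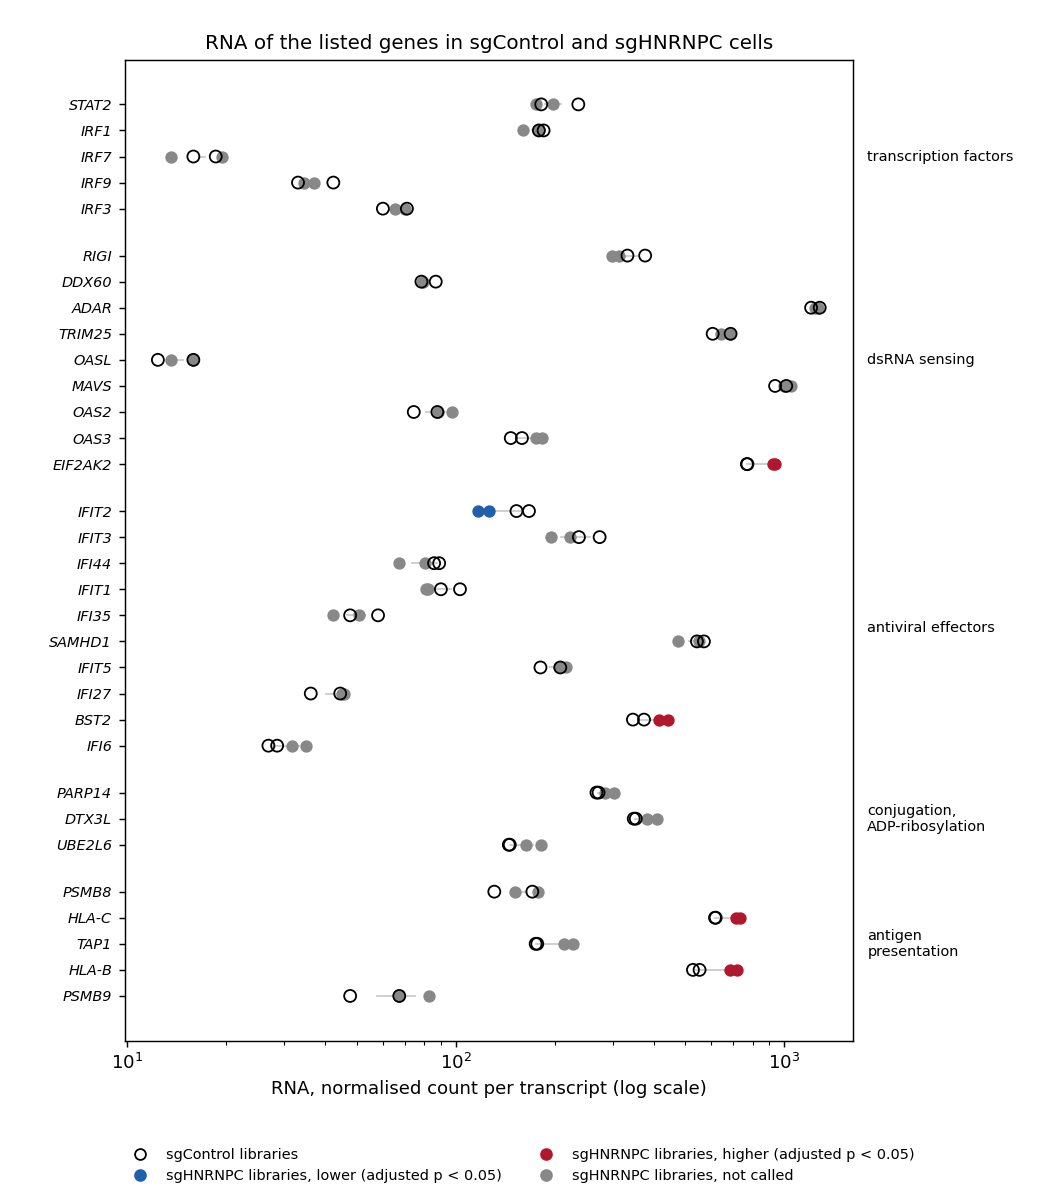
RNA of the 32 listed members in each of the 2 sgControl (open circles) and 2 sgHNRNPC (filled circles) libraries, as normalised count per transcript on a log scale, grouped by role; grey lines join the group means and colour gives the call. Circles of the 2 lines lie close together for nearly all members, and the called genes EIF2AK2, HLA-B, HLA-C, BST2 and IFIT2 lie between 76.1% and 130% of control.

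EIF2AK2, the gene of PKR, was at 772 and 769 in sgControl and 923 and 938 in sgHNRNPC RNA, 121% of control (log2 change 0.27 ± 0.06, adjusted p = 0.000765). Its transcript (chr2:37099210-37156980, minus strand) overlaps 35 exonic bases of GPATCH11 and 167 of a pseudogene on the opposite strand. In footprints it was at 10.7 and 17.9 against 10.1 and 21.7, which overlapped widely. RIGI was at 333 and 377 against 299 and 314 (-0.21 ± 0.09, adjusted p = 0.145), MAVS at 1013 and 937 against 994 and 1050 (0.07 ± 0.06, adjusted p = 0.533), and ADAR at 1206 and 1281 against 1238 and 1268 (0.01 ± 0.06, adjusted p = 0.936). For MAVS and ADAR the libraries of the 2 lines overlapped.

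The class I genes were higher. HLA-B RNA was 552 and 527 in sgControl and 719 and 681 in sgHNRNPC libraries (log2 change 0.38 ± 0.07, adjusted p = 1.86e-05), and HLA-C was 618 and 615 against 734 and 712 (0.23 ± 0.07, adjusted p = 0.0127). The HLA-C call was lost without any 1 of the 4 libraries (adjusted p = 0.0571 to 0.148), and that of HLA-B was kept each time. Both share sequence and cannot be taken as separate measurements. TAP1 was 175 and 177 against 213 and 228 (0.32 ± 0.12, adjusted p = 0.0579). All 5 listed antigen presentation members had log2 RNA changes above 0, from 0.13 to 0.39, and 2 of them, HLA-B and HLA-C, were called. Among all 32 listed members 20 were above 0, and the median over all transcripts was -0.02. With HLA-B and HLA-C not separate, the 5 are not 5 independent changes. In RPF, 4 of these members were tested, with log2 changes from -0.50 (PSMB8) to 0.44 (HLA-B), and 0 were called.

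BST2 and IFIT2 were the called effectors. BST2 was at 374 and 346 in sgControl and 443 and 414 in sgHNRNPC RNA (log2 change 0.25 ± 0.08, adjusted p = 0.0353), opposite in direction to MDA-LM2 cells. It was not called when libraries were rescaled to equal totals (adjusted p = 0.0671) or without sgControl replicate 2 or either sgHNRNPC replicate (0.0843 to 0.307). IFIT2 was at 167 and 153 against 126 and 117 (-0.40 ± 0.14, adjusted p = 0.0498), close to the threshold and lost without any 1 library. IFIT3 (274 and 237 against 195 and 222, adjusted p = 0.0713) and IFIT1 (90.1 and 103 against 82.1 and 80.9, adjusted p = 0.434) did not pass. IRF3 (71.0 and 60.0 against 65.4 and 70.2, adjusted p = 0.916) and STAT2 (182 and 236 against 197 and 176, adjusted p = 0.479) overlapped between lines.

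No member was called in RPF or TE after knockdown by limma. Of 19 members over the minimum, 2 had an unadjusted p under 0.05 in RPF (IFIT3 at 21.6 and 13.8 against 10.9 and 6.14, and HLA-B at 52.1 and 41.9 against 59.8 and 68.1) and none in TE. IFIT3 had an sgHNRNPC mean of 8.51 and passed the minimum only through the sgControl libraries, so its values are a description. Over all 4283 transcripts tested, 0.0233% were called in RPF and none in TE by limma (332 at an unadjusted p under 0.05, and 11 by logistic regression), and HNRNPC itself did not pass in RPF (73.4 and 111 against 54.4 and 67.0, adjusted p = 0.467). The footprint totals were 158011 to 167928 per library here and 650736 to 679726 in the MDA-LM2 table, so RPF values rest on fewer normalised counts. The lowest RPF change of the 19 members was -0.99, that of IFIT3, and the highest 0.44, with a median standard error of 0.34.

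The 2 comparisons share no library. Of the 9 members lower in MDA-LM2 RNA, the knockdown table lists 8. Their log2 changes in sgHNRNPC cells ran from -0.40 to 0.25, with 4 below 0 and 4 above, and only IFIT2 was called lower in both. MAVS, PARP14 and DTX3L, higher in MDA-LM2 RNA, changed by 0.07, 0.12 and 0.18 after knockdown and were not called.

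**Figure D5:**
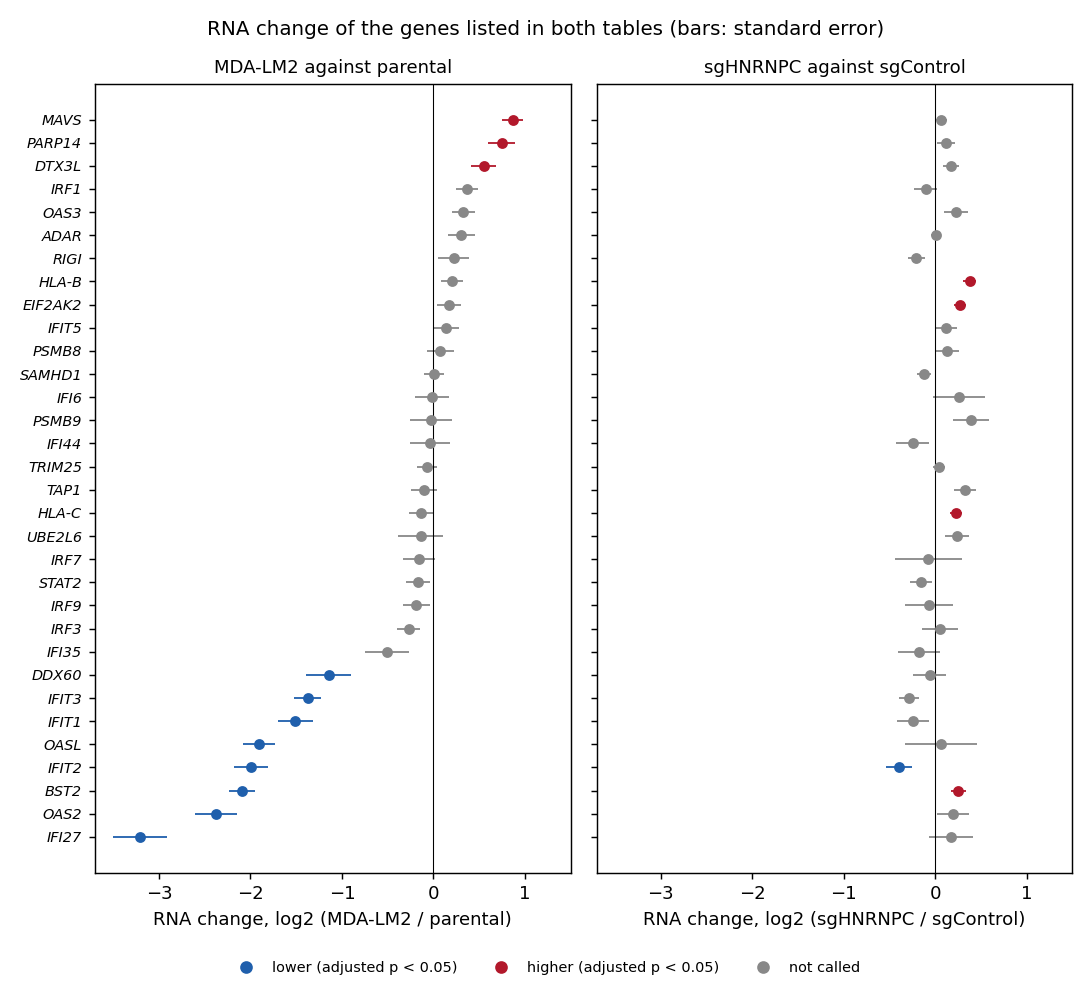
Log2 RNA change with standard error of the 32 members listed in both tables, ordered by the change in MDA-LM2 cells (left panel) and shown in the same order for sgHNRNPC cells (right panel), on equal axes; colour gives the call. The left panel spans -3.21 to 0.86 and the right panel -0.40 to 0.39, and the 8 blue genes on the left lie on both sides of 0 on the right.

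Other genes of the pathway were read in the same fits, from a list of 98 chosen by pathway role, with earlier results of these data known. In MDA-LM2 RNA, 77 were listed, 5 were lower and none was higher. The 5 were STING1, the adaptor of the DNA sensor cGAS (140 and 148 in parental against 77.0 and 63.8), RNF135, a ubiquitin ligase that acts on RIG-I (187 and 194 against 101 and 74.5), the guanylate-binding protein gene GBP2 (84.2 and 78.9 against 40.4 and 48.8), SOCS3, a feedback inhibitor of cytokine signalling (1320 and 1241 against 816 and 643), and ZC3HAV1, the CpG-binding zinc finger antiviral protein (459 and 521 against 302 and 370). Their log2 changes ran from -1.13 to -0.55 and the share lower was 6.49%, below the 10.0% of all transcripts. In MDA-LM2 RPF, 66 of the list were tested, 4 were higher (6.06%) and 3 lower (4.55%), against 5.00% and 7.03% of all transcripts. The higher ones were TRIM21, a cytosolic antibody receptor (9.68 and 12.2 against 27.8 and 28.6), TANK, a scaffold of the kinases that activate IRF3 (12.6 and 17.3 against 31.5 and 27.6), GBP3 (22.4 and 20.3 against 35.7 and 38.8) and the nuclear body protein SP100 (48.7 and 49.1 against 70.6 and 75). The lower ones were ZC3HAV1 (110 and 147 against 65.7 and 53.3) and the chaperones CALR (647 and 600 against 528 and 457) and CANX (754 and 705 against 582 and 607). None of the 5 interferon and chemokine genes on the list (IFNB1, IFNL1, CXCL10, CXCL11 and CCL5) was in either table.

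In sgHNRNPC RNA, 74 of the 98 were listed, 4 were higher and 3 lower. Among the higher ones were APOL6 (255 and 254 against 324 and 374), ZNFX1, a helicase that senses viral RNA (711 and 653 against 832 and 819) and the proteasome activator subunit PSME1 (543 and 461 against 587 and 619). The lower ones were G3BP1, a stress granule protein (2057 and 2117 against 1801 and 1810), the chaperone CALR (5650 and 5282 against 4945 and 4879) and SOCS3 (198 and 191 against 140 and 164). Log2 changes of these 6 lay between -0.36 and 0.45. The shares were 5.41% higher and 4.05% lower, against 3.41% and 6.64% of all transcripts.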

How the data were processed

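The members and gene lists were chosen with earlier results of these data known. The deposited values are signal: normalised counts per transcript, made by the authors separately for each table and for RNA and RPF, after trimming with cutadapt 2.3, Bowtie2 2.3.5 alignment (hg38) and UMI-tools deduplication. RNA values were whole multiples of a step per library (100% within 0.01 of a whole read), so depth was 7517953 to 8193031 RNA reads for parental and MDA-LM2 libraries and 5141959 to 6164753 for sgControl and sgHNRNPC ones. RPF depth in reads is unknown. Transcripts were named through GENCODE 44 (97.9% matched in each table). Tests used limma 3.58.1 in R 4.3.3 with a trend, on log2(value + 1), which understates changes of low genes. Each group had n = 2 libraries. Limma draws the variance of each gene toward a trend over all transcripts tested. Standard errors and p-values so rest on the gene's own duplicates together with that pooled spread, and measure no spread beyond these libraries. TE was the interaction contrast. RPF and TE were tested where RPF and RNA means both reached 10. Calls had a Benjamini-Hochberg adjusted p under 0.05 over all transcripts. The script was tested on simulated data. Values per library are given for called members and for fixed markers, ISG15, IFIH1, OAS1 and B2M (not listed) among them, and other neighbours or examples were chosen after their values were seen. Alternatives were other added values, scalings, filters, moderation, a replicate block, logistic regression, voom and leaving out each library. No value column was left unmapped (0). Some genes of the lists are not reported here.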

Additional observations from a re-analysis of the deposited data

How the results depend on the processing

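Among followed values of single genes, 580 kept their direction and side of the threshold, 24 lost the call, 8 gained it and 8 turned direction. With each library left out in turn, members called ranged from 10 to 21 in MDA-LM2 RNA (21 without MDA-LM2 replicate 1), 7 to 9 in MDA-LM2 RPF and 2 to 3 in sgHNRNPC RNA, and calls over all transcripts from 725 to 5046, 641 to 855 and 401 to 693. Raising the minimum mean to 50 left 14 members tested and 4 called in MDA-LM2 RPF. Directions that turned were all of genes not called: in sgHNRNPC RNA, ADAR at -0.007 with equal totals, -0.00744 with voom and -0.0323 to 0.0551 with a library left out, IRF3 at -0.0669 to 0.172 and STAT2 at -0.338 to 0.0325 with a library left out, and in sgHNRNPC RPF, EIF2AK2 at -0.419 to 0.605. Rescaling to equal totals moved the median of all transcripts in MDA-LM2 RNA from -0.02 to 0.15 and the share of calls that were higher from 39.8% to 67.5% (voom, chosen after seeing the data, 66.8%), and called 15 members, the main 12 with OAS3, IRF1 and HLA-B. In sgHNRNPC RNA that share moved from 33.9% to 46.4% with quantile normalisation. IFIT2 in sgHNRNPC RNA lost its call with an added value of 5 (adjusted p = 0.0507), quantile normalisation (0.0651) or a mean RNA of at least 10 (0.0501). The replicate numbers pair only 2 libraries per group, and deviations of same-numbered libraries correlated at 0.234 in MDA-LM2 RNA and -0.00377 in sgHNRNPC RNA. With the replicate block 12 members were called in MDA-LM2 RNA, 10 in MDA-LM2 RPF (HLA-B added), 5 in sgHNRNPC RNA and 0 in each other result, and calls over all transcripts rose to 2549 in MDA-LM2 RNA and to 12 in sgHNRNPC RPF. Logistic regression called 181 transcripts in MDA-LM2 TE and 11 in sgHNRNPC TE, with 0 members in each. The cause of these shifts was not tested. The planned count models were not run. RPF depth in reads is unknown, so the limit that depth sets on RPF changes was not tested.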
